A study of Homo sapiens with 12 samples.

Results

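The EPH receptors are the largest family of receptor tyrosine kinases, and 10 of them are described here in human neuroblastoma cells: the A-class receptors EPHA2, EPHA3, EPHA4, EPHA5 and EPHA7 and the B-class receptors EPHB1, EPHB2, EPHB3, EPHB4 and EPHB6. They were listed by gene symbol, with earlier results of these data known, and are 10 of the 61552 genes in the deposited count table. Messenger RNA was sequenced from cells cultured overnight with or without ML210, a covalent inhibitor of GPX4, the enzyme that reduces lipid peroxides in membranes. Blocking GPX4 induces ferroptosis, an iron-dependent cell death, and the series asks how MYCN-amplified and non-amplified neuroblastoma lines respond to it. SK-N-BE(2) and SK-N-AS are established neuroblastoma cell lines, 1 for each MYCN status, and effects of the line and of MYCN cannot be told apart. The 4 groups were SK-N-BE(2) with ML210, SK-N-BE(2) control, SK-N-AS with ML210 and SK-N-AS control. All carried the genotype label WT, the dose of ML210 is not in the labels, and whether the controls received a vehicle is not stated. Each group held 3 libraries, 1 from each of 3 labelled batches. No label says that these were separate cultures, so p-values measure the spread between these libraries only.

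EPH receptors are bound by ephrins, ligands held on the surface of neighbouring cells, and signals pass into both the receptor-bearing and the ephrin-bearing cell. A-class receptors mainly bind the lipid-anchored ephrin-A ligands and B-class receptors the transmembrane ephrin-B ligands, while EPHA4 binds both. The family is known for contact-dependent repulsion and sorting of cells, as in axon guidance and the migration of neural crest cells, the embryonic cells from which neuroblastoma arises. EPHB6 has lost kinase activity, and its expression, like that of the ligands EFNB2 and EFNB3, has been described as higher in neuroblastomas of favourable outcome.

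Library totals lay between 54047293 and 83481963 counted reads. MYCN went against the line labels, since the design gives SK-N-BE(2) as the amplified line: it lay between 0.0607 and 0.240 CPM (counts scaled to library size) in libraries labelled SK-N-BE(2), against 3458 to 3933 CPM in libraries labelled SK-N-AS. The libraries are therefore named by their label throughout, and every line difference below has its direction from those labels. Whether the line labels were exchanged was not tested, and every line difference would change sign if they were. Adrenergic neuroblastoma markers (10 genes, none at 0 on average in any group) summed to 1222 to 1846 CPM labelled SK-N-BE(2), against 8039 to 9246 CPM labelled SK-N-AS. Mesenchymal markers (8 genes) summed to 2428 to 3027 CPM labelled SK-N-BE(2), against 367.0 to 448.3 CPM labelled SK-N-AS. Of 6 blood markers, PTPRC made up nearly all of a sum of 163.0 to 329.8 CPM labelled SK-N-BE(2), against 1.53 to 3.46 CPM labelled SK-N-AS, and 2 to 3 of the 6 were at 0 in each group. The summed fibroblast markers (5 genes) lay at 1425 to 2035 CPM and the epithelial ones (5 genes) at 134.5 to 230.7 CPM labelled SK-N-BE(2), against 94.4 to 210.6 CPM and 7.75 to 14.03 CPM labelled SK-N-AS. Endothelial markers (5 genes) lay at 0.692 to 2.44 CPM and Schwann cell markers (5 genes) at 2.61 to 3.55 CPM labelled SK-N-BE(2), against 14.2 to 39.2 CPM and 8.19 to 16.2 CPM labelled SK-N-AS. The epithelial sum labelled SK-N-BE(2) was carried by KRT8 and KRT18, while KRT19, EPCAM and CDH1 were lower there than under the SK-N-AS label, at 1.46 CPM with ML210 and 1.93 CPM in controls for KRT19, against 6.46 CPM with ML210 and 8.50 CPM in controls labelled SK-N-AS. The part of these marker differences in the receptor differences was not tested. The libraries labelled SK-N-AS also differed in how many reads they held of genes that are high only under the other label. For 42 genes with at least 50 CPM labelled SK-N-BE(2) and no more than 3% of that in any library labelled SK-N-AS, the median level was 0.362% of the SK-N-BE(2) mean in batch 1, 1.19% in batch 2 and 1.77% in batch 3 with ML210, and 0.346%, 1.69% and 1.48% in the controls. What share of the low receptor values this makes up was not tested.

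The starts of 3 receptor genes on which the line difference turns are shown next: EPHA7 and EPHA2, which had the highest levels per gene length under the SK-N-BE(2) label, and EPHB4, the member that was lower there. Each is the 250 bases before the RefSeq start site (GRCh38.p14), read 5′ to 3′ on the gene's strand: chr6:93419560-93419809 for EPHA7, chr1:16156070-16156319 for EPHA2 and chr7:100827524-100827773 for EPHB4, all on the minus strand. Capitals mark matches on either strand to the GC box GGGCGG or to the TEAD motif GGAATG.
EPHA7: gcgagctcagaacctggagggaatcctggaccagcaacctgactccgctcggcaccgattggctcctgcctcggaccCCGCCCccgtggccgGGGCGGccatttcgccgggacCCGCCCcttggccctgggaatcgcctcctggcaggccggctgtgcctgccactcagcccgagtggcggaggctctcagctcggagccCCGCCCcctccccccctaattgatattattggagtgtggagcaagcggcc
EPHA2: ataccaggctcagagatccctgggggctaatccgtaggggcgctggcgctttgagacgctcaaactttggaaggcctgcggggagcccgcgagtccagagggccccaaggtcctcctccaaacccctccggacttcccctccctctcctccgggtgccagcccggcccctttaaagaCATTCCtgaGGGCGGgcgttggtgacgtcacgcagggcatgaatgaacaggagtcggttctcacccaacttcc
EPHB4: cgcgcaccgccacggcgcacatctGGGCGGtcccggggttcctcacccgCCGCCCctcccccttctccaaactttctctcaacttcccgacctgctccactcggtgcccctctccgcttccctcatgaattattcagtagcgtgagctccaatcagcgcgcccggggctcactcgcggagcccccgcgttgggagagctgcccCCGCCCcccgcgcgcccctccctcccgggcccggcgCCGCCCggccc
EPHA7 and EPHB4 each held 4 GC box matches. Whether motif matches bear on the line differences was not tested. EPHA2 held 1 GC box, 64 bases before the start, and 1 TEAD match, 73 bases before it. Over 35116 RefSeq promoter windows of the same length, 42.6% held a GC box and 11.9% a TEAD match. Neither the AP-1 motif TGANTCA (6.57% of all windows) nor the E-box CACGTG (6.34%) was matched in the window of any of the 10 receptors, which says only that those letters are not in those windows. For EPHB1 and EPHB6 the only RefSeq window lay 197459 and 7695 bases from the GENCODE start of the gene. The windows held 19 CpG in EPHA7, 15 in EPHA2 and 29 in EPHB4, and the median over all windows was 11. A match is a description of the letters, and no binding was measured.

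Levels of different receptors were compared as RPKM, which divides the reads of a gene by its exon length and the library size. Under the SK-N-BE(2) label the order was led by EPHA2, best known as a receptor for ephrin-A1, and then by EPHA7, an ephrin-A receptor of the developing brain. EPHA2 averaged 34.9 ± 9.80 RPKM with ML210 and 32.2 ± 5.92 RPKM in controls (SD, n = 3 each), and EPHA7 averaged 9.89 ± 1.65 RPKM with ML210 and 16.7 ± 1.02 RPKM in controls. EPHB6 and EPHB2 came next and overlapped in range, at 5.92 ± 0.767 and 4.68 ± 0.429 RPKM with ML210 and at 5.55 ± 0.793 and 5.14 ± 0.297 RPKM in controls. EPHB3, EPHA5, EPHB4, EPHB1, EPHA4 and EPHA3 followed in that order in both groups. Of those neighbours, only EPHB4 and EPHB1 overlapped, and only with ML210.

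Under the SK-N-AS label no receptor stood apart at the top. EPHA2, EPHB2 and EPHB3 averaged 4.79 ± 0.620, 4.27 ± 0.0245 and 3.80 ± 1.27 RPKM with ML210 and 4.13 ± 0.581, 4.12 ± 0.240 and 3.76 ± 1.35 RPKM in controls, and neighbours in this order overlapped in range. EPHB4 followed at 1.69 ± 0.678 RPKM with ML210 and 1.55 ± 0.611 RPKM in controls, clear of EPHA5 below it. Its highest library lay only just under the lowest of EPHB3, at 2.32 against 2.34 RPKM with ML210 and 2.13 against 2.21 RPKM in controls. That gap depends on the exon length used, for EPHB4 6435 bases here and 4329 in its longest coding transcript. EPHA5 and EPHB1 came next and overlapped only in controls. EPHA7 and EPHB6 overlapped in both groups, each under 0.15 RPKM on average, and EPHA4 and EPHA3 were last.

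The A class took a larger share of the 10 receptors under the SK-N-BE(2) label. Of the RPKM summed over the 10 receptors, EPHA genes made up 75.9 ± 2.91% with ML210 and 77.7 ± 1.92% in controls under the SK-N-BE(2) label (SD, n = 3 each). Under the SK-N-AS label they made up 34.4 ± 0.736% with ML210 and 32.3 ± 0.763% in controls. The sum over the 10 receptors was 61.1 ± 8.47 RPKM with ML210 and 65.1 ± 6.99 RPKM in controls labelled SK-N-BE(2), against 15.5 ± 2.04 RPKM with ML210 and 14.7 ± 2.58 RPKM in controls labelled SK-N-AS. Most of that gap was EPHA2 and EPHA7, as the stacked plot shows. The share under the SK-N-AS label depends on which receptors are counted. With EPHA1, EPHA6, EPHA8 and EPHA10 added, EPHA genes made up 75.96 ± 2.88% with ML210 and 77.8 ± 1.91% in controls labelled SK-N-BE(2), against 50.7 ± 1.74% with ML210 and 49.6 ± 2.67% in controls labelled SK-N-AS. EPHA6 and EPHA8 added most to the EPHA sum there, at 2.31 ± 0.0944 and 2.60 ± 0.0293 RPKM with ML210 and 2.25 ± 0.257 and 2.59 ± 0.219 RPKM in controls labelled SK-N-AS.

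**Figure D1:**
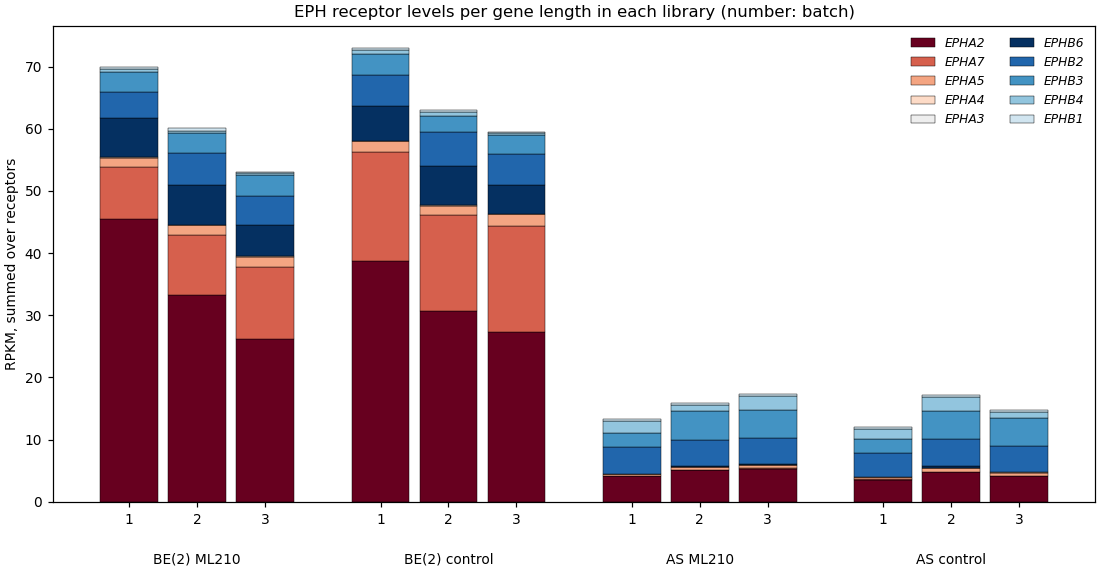
RPKM of the 10 receptors stacked for each library, with A-class receptors in reds and B-class receptors in blues; the number under each bar is the batch and the y axis is linear. The bars labelled SK-N-BE(2) are taller and mostly red, at 75.9% EPHA with ML210 and 77.7% in controls, and those labelled SK-N-AS are mostly blue for these 10 receptors. EPHA6 and EPHA8 are not drawn, and with all 14 receptors the EPHA share labelled SK-N-AS was 50.7% with ML210 and 49.6% in controls.

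The line difference was tested within each treatment, so that a positive log2 value is higher under the SK-N-BE(2) label. Of the 10 receptors, EPHA3 did not pass the filter on low counts and was not tested, and EPHA4 passed only through libraries labelled SK-N-BE(2). With ML210, 5 were higher (EPHA2, EPHA4, EPHA5, EPHA7 and EPHB6) and EPHB4 was lower at an adjusted p under 0.05 (edgeR quasi-likelihood test, adjusted over 20304 genes). In controls 6 were higher, EPHB2 being the one added, and EPHB4 was lower. The lines differed across the transcriptome: 69% of all tested genes were called with ML210 (34.6% higher, 34.5% lower) and 69.2% in controls (33.9% higher, 35.2% lower). The members' count therefore stands close to that background. Since EPHA4 reached the test only through the label where it was higher, its call is no support for a direction. Over the 8 receptors that pass the filter under each label alone, 4 were higher and 1 lower with ML210, and 5 were higher and 1 lower in controls. A fit without the 4 libraries labelled SK-N-AS of batches 2 and 3 leaves 1 library in each SK-N-AS group. It takes that library to vary like the other groups. There EPHA2, EPHA5, EPHA7 and EPHB6 stayed higher and EPHB4 lower in both treatments. The log2 difference of EPHB3 turned positive in both, and that of EPHB1 turned negative with ML210. The median log2 difference of the 8 receptors that pass under each label was 1.00 with ML210 and 1.08 in controls, against 0.017 and -0.005 over all genes tested. Regardless of sign, their median absolute log2 difference was 2.01 with ML210 and 1.72 in controls, against 0.80 and 0.81 over all genes. These medians over all genes were not limited to genes that pass the filter under each label alone. EPHA6 and EPHA8 also pass under each label alone but are not among these 8 receptors. They were lower under the SK-N-BE(2) label, at log2 -4.12 and -5.49 with ML210 and -3.84 and -5.28 in controls. The receptor medians thus describe these 8 and not the whole EPH family.

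**Figure D2:**
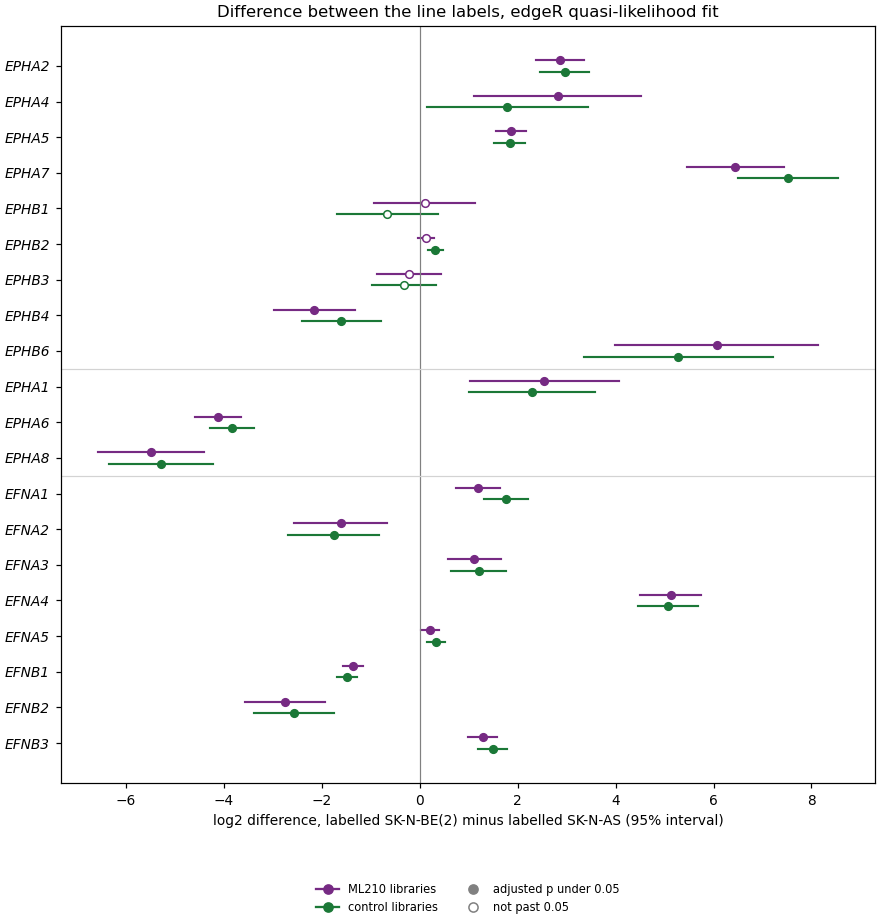
Log2 difference between the line labels, with SK-N-BE(2) over SK-N-AS, for the tested receptors (top), other EPH receptors (middle) and ephrins (bottom), with 95% intervals from the edgeR fit; purple is with ML210, green is in controls, and filled points had an adjusted p under 0.05. EPHA7 lies farthest right, at 6.45 with ML210 and 7.53 in controls, and EPHB4 lies left of 0 in both; EPHA10 is not drawn because it had no read under the SK-N-BE(2) label.

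EPHA7 had the largest fitted log2 difference of the 9 tested receptors in both treatments. Values of single libraries are given in the order of batches 1, 2 and 3. Its levels were 61.8, 73.1 and 86.4 CPM with ML210 and 130.0, 116.0 and 127.9 CPM in controls labelled SK-N-BE(2). In libraries labelled SK-N-AS they were 0.335, 0.924 and 1.20 CPM with ML210 and 0.182, 0.977 and 0.932 CPM in controls. Every library labelled SK-N-BE(2) lay far above every library labelled SK-N-AS. The CPM ranges of 73.1% of all tested genes did not overlap between the labels with ML210, and those of 74% did not in controls. The log2 difference was 6.45 with ML210 (SE 0.435, adjusted p = 5.82e-07) and 7.53 in controls (SE 0.452, adjusted p = 2.32e-07). The ratio differed by batch, at 185-fold, 79.1-fold and 72.3-fold with ML210 and 714-fold, 119-fold and 137-fold in controls. Behind the values labelled SK-N-AS stood only 17, 63 and 75 reads with ML210 and 14, 61 and 59 reads in controls. As a share of its SK-N-BE(2) mean, EPHA7 was at 0.337%, 0.932% and 1.21% with ML210 and 0.184%, 0.985% and 0.940% in controls, below the median of the 42 genes described above, to which it belongs, in each of the 6 libraries. Without the 4 libraries labelled SK-N-AS of batches 2 and 3 the log2 difference was 7.78 with ML210 and 9.40 in controls.

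EPHB6, the receptor without kinase activity, showed a similar separation on fewer reads. It lay at 33.3, 34.4 and 26.8 CPM with ML210 and 29.8, 33.7 and 25.3 CPM in controls labelled SK-N-BE(2), against 0, 0.543 and 0.797 CPM with ML210 and 0, 1.57 and 0.790 CPM in controls labelled SK-N-AS. The groups did not overlap, and both batch 1 libraries labelled SK-N-AS held no read of it. Its log2 difference was 6.06 with ML210 (SE 0.907, adjusted p = 0.000267) and 5.28 in controls (SE 0.850, adjusted p = 0.000429). The ML210 difference was 6.69 without SK-N-AS ML210 replicate 3, and the control difference was 6.32 without SK-N-AS control replicate 2 and 4.64 without SK-N-AS control replicate 1. In batch 1 alone EPHB6 was at least 565-fold higher with ML210 and at least 763-fold higher in controls, taking a floor of 3 reads per library.

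EPHA2 lay at 189.3, 138.0 and 108.8 CPM with ML210 and 161.2, 127.3 and 113.3 CPM in controls labelled SK-N-BE(2). Under the SK-N-AS label it lay at 17.0, 21.0 and 21.8 CPM with ML210 and 14.9, 19.7 and 17.0 CPM in controls. The labels did not overlap, and within the SK-N-BE(2) label the batch 1 libraries were the highest in both groups. The log2 difference was 2.86 with ML210 (SE 0.223, adjusted p = 9.77e-07) and 2.96 in controls (SE 0.224, adjusted p = 7.52e-07). Without the 4 libraries labelled SK-N-AS of batches 2 and 3 it was 3.10 with ML210 and 3.17 in controls.

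EPHA5, an ephrin-A receptor of growing axons, was lower in level but as clearly separated. It stood at 15.4, 14.6 and 15.9 CPM with ML210 and 17.5, 14.6 and 18.1 CPM in controls labelled SK-N-BE(2), against 3.88, 4.27 and 4.45 CPM with ML210 and 3.68, 5.45 and 4.96 CPM in controls labelled SK-N-AS. This was a 3.65-fold difference of means with ML210 and a 3.56-fold one in controls (log2 1.87, SE 0.144, adjusted p = 4.74e-08, and log2 1.83, SE 0.143, adjusted p = 5.05e-08). Without the 4 libraries labelled SK-N-AS of batches 2 and 3 the log2 difference was 1.98 with ML210 and 2.18 in controls. EPHA2 and EPHA5 overlap annotated antisense genes, EPHA2-AS1 and EPHA5-AS1. The libraries were stranded, but the strand setting used for counting is not given in the sources used here, so reads of these pairs cannot be told apart.

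EPHB4, whose main ligand is ephrin-B2, was the member that was lower under the SK-N-BE(2) label. Its levels were 2.28, 2.01 and 3.04 CPM with ML210 and 4.01, 3.39 and 2.47 CPM in controls labelled SK-N-BE(2). Under the SK-N-AS label they were 11.5, 6.25 and 14.9 CPM with ML210 and 10.4, 13.7 and 5.85 CPM in controls. The SK-N-AS values scattered more than 2-fold between batches, but the labels did not overlap. The log2 difference was -2.15 with ML210 (SE 0.374, adjusted p = 0.000317) and -1.60 in controls (SE 0.365, adjusted p = 0.00219). It was -2.24 with ML210 and -1.66 in controls without the 4 libraries labelled SK-N-AS of batches 2 and 3.

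The ephrin-B receptors EPHB1, EPHB2 and EPHB3, which like EPHB4 are known from axon guidance and vessel growth, differed little or unevenly. EPHB2 was at 53.3, 64.1 and 58.5 CPM with ML210 and 63.8, 68.4 and 61.02 CPM in controls labelled SK-N-BE(2), against 53.5, 53.8 and 53.2 CPM with ML210 and 48.2, 54.1 and 52.2 CPM in controls labelled SK-N-AS. It lay within a narrow range in all 12 libraries. The labels overlapped with ML210 and were apart in controls, where the difference was called at 1.25-fold (log2 0.32, SE 0.0728, adjusted p = 0.00131). With ML210 the log2 difference was 0.13 (95% interval -0.02 to 0.29, adjusted p = 0.122). That p became 0.0252 without SK-N-BE(2) ML210 replicate 1, with a log2 difference of 0.20.

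EPHB3 was at 14.9, 14.7 and 14.99 CPM with ML210 and 15.1, 11.9 and 13.7 CPM in controls labelled SK-N-BE(2). Its level labelled SK-N-AS was 10.6, 21.1 and 20.0 CPM with ML210 and 10.0, 20.9 and 20.2 CPM in controls. Batch 1 of the SK-N-AS label lay under all libraries labelled SK-N-BE(2), and batches 2 and 3 lay above all of them. The difference was not called, at log2 -0.22 with ML210 (95% interval -0.87 to 0.43, adjusted p = 0.526) and -0.33 in controls (95% interval -0.98 to 0.33, adjusted p = 0.344), and its direction turned on which batches were used. Without the 4 libraries labelled SK-N-AS of batches 2 and 3 it was 0.48 with ML210 (adjusted p = 0.0301) and 0.44 in controls (adjusted p = 0.0433). Without SK-N-AS control replicate 1 it was -0.60 in controls (adjusted p = 0.0347).

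EPHB1 was at 2.67, 3.60 and 0.819 CPM with ML210 and 1.90, 2.34 and 0.768 CPM in controls labelled SK-N-BE(2), against 2.46, 2.11 and 2.01 CPM with ML210 and 2.84, 3.00 and 2.07 CPM in controls labelled SK-N-AS. Batch 3 was the lowest in both SK-N-BE(2) groups, and the labels overlapped. The difference was not called, at log2 0.11 with ML210 (95% interval -0.93 to 1.14) and -0.66 in controls (95% interval -1.69 to 0.38).

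EPHA4 and EPHA3 were near the limit of detection. EPHA4 had 17, 24 and 54 reads with ML210 and 18, 26 and 20 reads in controls labelled SK-N-BE(2), against 0, 2 and 10 reads with ML210 and 8, 8 and 2 reads in controls labelled SK-N-AS. The labels did not overlap in CPM. The log2 difference was 2.82 with ML210 (SE 0.793, adjusted p = 0.00593) and 1.79 in controls (SE 0.761, adjusted p = 0.0499), but EPHA4 passed the filter only under the label where it was higher, so these p-values give no support for the direction. The ML210 difference was 4.68 without SK-N-AS ML210 replicate 3, and in batch 1 alone EPHA4 was at least 4.37-fold higher with ML210 at the floor of 3 reads. The control call rested on the threshold: it was lost in 9 of 12 fits that left out 1 library, which kept it only without SK-N-AS ML210 replicate 1, SK-N-AS ML210 replicate 3 or SK-N-BE(2) ML210 replicate 1, and with a batch term (adjusted p = 0.0660). EPHA3, a receptor for ephrin-A5, had 2 reads in 1 ML210 library and 2 reads in 1 control labelled SK-N-BE(2), both of batch 3, and none labelled SK-N-AS, which allows levels of up to 0.039 to 0.059 CPM in those libraries (a floor of 3 reads each).

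**Figure D3:**
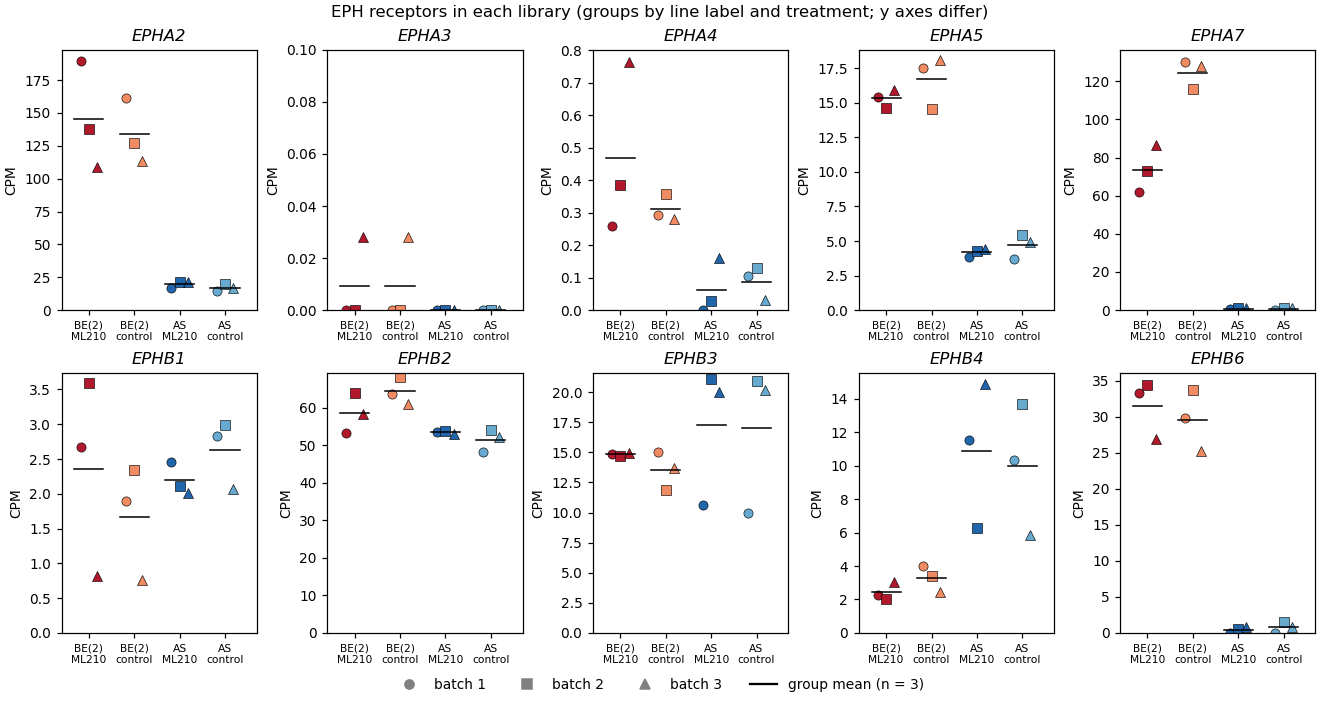
CPM of the 10 receptors in each library, with groups along the x axis, a marker for each batch and a line at the group mean (n = 3); y axes are linear and differ between panels. EPHA2, EPHA5, EPHA7 and EPHB6 separate by line label, EPHB3 is low in batch 1 of both SK-N-AS groups, and EPHA7 is lower with ML210 than in controls labelled SK-N-BE(2).

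The ML210 response was tested within each line label, ML210 minus control, on counts from cultures in which fewer cells of a kind and less RNA per cell cannot be told apart. No receptor was called under either label in the fit without a batch term. Labelled SK-N-BE(2), 0 of the 9 tested receptors were called by edgeR, against 1.37% of all genes, and 0 by DESeq2, against 3.63%. By edgeR 1 receptor (EPHA7) had an unadjusted p under 0.05, as did 13.5% of all genes. Labelled SK-N-AS, 0 were called by edgeR, against 0.0296% of genes, and 0 by DESeq2, against 0.212%, and 0 had an unadjusted p under 0.05, against 6.89%. The difference of the responses (SK-N-BE(2) label less SK-N-AS label) was called for 0 receptors by edgeR, against 0.00493% of genes, and for 0 by DESeq2, against 0.202%, and 0 had an unadjusted p under 0.05, against 7.16%.

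EPHA7 was lower with ML210 in each of the 3 batches labelled SK-N-BE(2). Its mean was 73.8 ± 12.3 CPM with ML210, against 124.6 ± 7.58 CPM in controls (SD, n = 3 each), and the ML210 value was 47.5%, 63.0% and 67.6% of the control of its batch. The groups did not overlap, as held for 17.4% of all tested genes (8.18% with ML210 below control). The log2 difference was -0.76 (SE 0.310, 95% interval -1.46 to -0.06), which did not pass adjustment (adjusted p = 0.321). Because all groups share 1 fit, this error also draws on the spread of EPHA7 in libraries labelled SK-N-AS, where it has few reads. With the batch as a block within each label the log2 difference was -0.77 (SE 0.0911, adjusted p = 0.0011), and EPHA7 was then 1 of 9 tested receptors called, against 6.83% of all genes (3.4% lower). In a fit of the libraries labelled SK-N-BE(2) alone it was -0.76 (SE 0.113, adjusted p = 0.0424), against 0.278% of genes called (0.196% lower). DESeq2 gave -0.77 with an adjusted p of 0.632. Labelled SK-N-AS the log2 difference was 0.32 (SE 0.552, adjusted p = 0.968), and the difference between the responses was -1.08 (95% interval -2.51 to 0.35, adjusted p = 0.769). It is thus not shown that the response of EPHA7 differs between the labels.

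**Figure D4:**
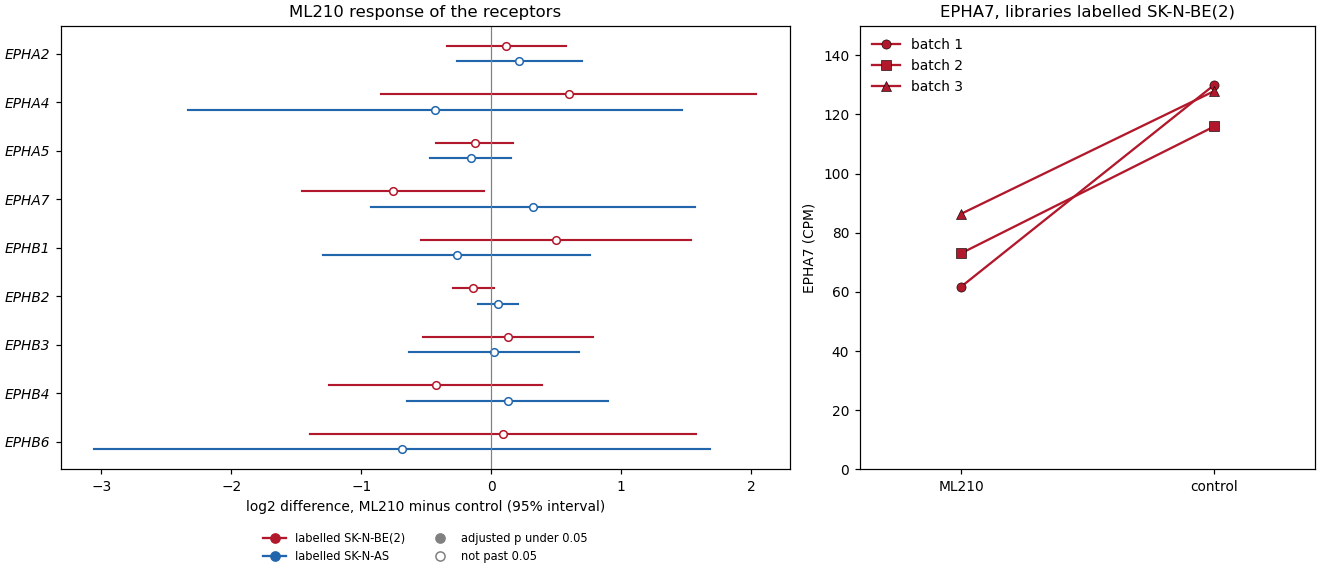
Left, log2 difference between ML210 and control for the 9 tested receptors with 95% intervals from the edgeR fit of all libraries, in red labelled SK-N-BE(2) and in blue labelled SK-N-AS; all points are open because none had an adjusted p under 0.05. Right, EPHA7 in CPM with ML210 and in control for each batch labelled SK-N-BE(2), with lines joining libraries of a batch: all 3 ML210 values, 61.8 to 86.4, lie under all 3 controls, 116.0 to 130.0.

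For the other receptors the intervals set the limits. EPHB2 was the most precisely measured, at log2 -0.14 with ML210 labelled SK-N-BE(2) (95% interval -0.29 to 0.02) and 0.05 labelled SK-N-AS (95% interval -0.10 to 0.21). EPHA5 was at -0.13 (95% interval -0.42 to 0.17) labelled SK-N-BE(2) and -0.16 (95% interval -0.47 to 0.15) labelled SK-N-AS. EPHA2 was at 0.12 (95% interval -0.34 to 0.58) labelled SK-N-BE(2) and 0.22 (95% interval -0.26 to 0.70) labelled SK-N-AS. A 2-fold change, 1 on the log2 scale, lies outside the intervals of these 3 receptors under both labels. It also lay outside those of EPHB3, at 0.13 (95% interval -0.52 to 0.78) labelled SK-N-BE(2) and 0.02 (95% interval -0.63 to 0.67) labelled SK-N-AS. EPHB4 was at -0.43 (95% interval -1.25 to 0.39) labelled SK-N-BE(2) and 0.13 (95% interval -0.64 to 0.90) labelled SK-N-AS. EPHB1 was at 0.50 (95% interval -0.54 to 1.54) labelled SK-N-BE(2). Labelled SK-N-AS it was at -0.27 (95% interval -1.30 to 0.76). The intervals of EPHB4 labelled SK-N-BE(2) and of EPHB1 under both labels thus reached past a 2-fold change. EPHA4, EPHB6 and EPHA7 had few reads under the SK-N-AS label, and their intervals also reached past a 2-fold change there. The log2 values were -0.43 (95% interval -2.33 to 1.47) for EPHA4 and -0.69 (95% interval -3.06 to 1.68) for EPHB6. For EPHA7 the value was 0.32 (95% interval -0.92 to 1.57). Labelled SK-N-BE(2), EPHA4 was at 0.60 (95% interval -0.85 to 2.04) and EPHB6 at 0.09 (95% interval -1.40 to 1.58). EPHB6 had 1810 to 2443 reads per library under that label, against 17 to 54 for EPHA4. As for EPHA7, the EPHB6 error in the shared fit also draws on its spread in libraries labelled SK-N-AS.

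The 4 other EPH receptors of the family differed between the labels mostly in the opposite direction. EPHA6 and EPHA8, ephrin-A receptors of the nervous system, were lower under the SK-N-BE(2) label. EPHA6 averaged 0.828 ± 0.284 CPM with ML210 and 0.994 ± 0.195 CPM in controls labelled SK-N-BE(2), against 14.5 ± 0.594 CPM with ML210 and 14.2 ± 1.62 CPM in controls labelled SK-N-AS. EPHA8 averaged 0.302 ± 0.252 CPM with ML210 and 0.347 ± 0.251 CPM in controls labelled SK-N-BE(2), against 13.9 ± 0.157 CPM with ML210 and 13.9 ± 1.17 CPM in controls labelled SK-N-AS (SD, n = 3 each). EPHA10, which like EPHB6 lacks kinase activity, had no read in any library labelled SK-N-BE(2), against 1.25 ± 0.319 CPM with ML210 and 0.964 ± 0.293 CPM in controls labelled SK-N-AS. With a floor of 3 reads per group, it was at least 81.7-fold lower with ML210 and at least 67.7-fold lower in controls under the SK-N-BE(2) label. EPHA1 stayed under 0.6 CPM in every library and passed the filter only through libraries labelled SK-N-BE(2), so that its difference is a description. It was at log2 2.54 with ML210 (adjusted p = 0.00554) and 2.29 in controls (adjusted p = 0.00372), or 3.16 without SK-N-AS control replicate 2. EPHA8 was at log2 -5.49 with ML210 and -5.28 in controls, or -6.47 without SK-N-BE(2) ML210 replicate 3 and -5.88 without SK-N-BE(2) control replicate 3. None of these 4 was called in an ML210 comparison by edgeR, against 1.37% of all genes labelled SK-N-BE(2) and 0.0296% labelled SK-N-AS. By the same test 0 had an unadjusted p under 0.05, against 13.5% and 6.89%. Having no read labelled SK-N-BE(2), EPHA10 could not be called there or in the difference of the responses. EPHA10 passed the filter only through libraries labelled SK-N-AS. All values of these receptors stand in a setting where 69.2% of genes differed between the control groups.

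All 8 ephrin ligands differed between the labels in both treatments, 5 higher and 3 lower under the SK-N-BE(2) label, where 69% of all genes were called with ML210 and 69.2% in controls. EFNA4 had the largest log2 difference of the 8, at 12.3, 12.3 and 14.0 CPM with ML210 and 11.3, 12.8 and 12.4 CPM in controls labelled SK-N-BE(2), against 0.236, 0.264 and 0.590 CPM with ML210 and 0.221, 0.481 and 0.395 CPM in controls labelled SK-N-AS. Its ranges did not overlap, and the log2 difference was 5.12 with ML210 (SE 0.288, adjusted p = 1.99e-09) and 5.07 in controls (SE 0.286, adjusted p = 1.92e-09). EFNB2, the ligand of EPHB4, was at 3.19, 3.12 and 7.71 CPM with ML210 and 5.29, 3.64 and 7.10 CPM in controls labelled SK-N-BE(2), against 34.9, 30.2 and 29.6 CPM with ML210 and 37.9, 26.0 and 30.6 CPM in controls labelled SK-N-AS. EFNB2 was thus lower under the same label as EPHB4, at log2 -2.75 with ML210 (SE 0.368, adjusted p = 7.71e-05) and -2.56 in controls (SE 0.364, adjusted p = 0.00012). EFNB1 (-1.36 with ML210, -1.48 in controls) and EFNA2 (-1.61 with ML210, -1.75 in controls) were lower as well. Higher were EFNB3 (1.28 with ML210, 1.49 in controls), EFNA1 (1.20 with ML210, 1.76 in controls), EFNA3 (1.12 with ML210, 1.20 in controls) and EFNA5 (0.21 with ML210, 0.33 in controls). Without the 4 libraries labelled SK-N-AS of batches 2 and 3, EFNA2 lost its call with ML210 (-0.96, adjusted p = 0.189) and in controls (-1.06, adjusted p = 0.129), and EFNA5 lost it with ML210 (0.09, adjusted p = 0.583).

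Per gene length, EFNB1 was the highest ephrin in all 4 groups, at 13.02 ± 1.31 RPKM with ML210 and 11.9 ± 0.867 RPKM in controls labelled SK-N-BE(2), against 33.5 ± 2.31 RPKM with ML210 and 33.3 ± 3.42 RPKM in controls labelled SK-N-AS. Ephrin-B genes made up 49.9 ± 2.23% of the RPKM summed over the 8 ephrins with ML210 and 49.5 ± 1.63% in controls labelled SK-N-BE(2), against 82.2 ± 1.12% with ML210 and 82.9 ± 2.61% in controls labelled SK-N-AS. The A-class share of the ephrins was thus larger under the SK-N-BE(2) label. No ephrin was called in an ML210 comparison by DESeq2, against 3.63% of all genes labelled SK-N-BE(2) and 0.212% labelled SK-N-AS. By edgeR none was called either, against 1.37% and 0.0296%. Labelled SK-N-BE(2) 0 had an unadjusted p under 0.05, against 13.5% of all genes, and labelled SK-N-AS 1 did, EFNA1, against 6.89%. It had 2.60, 3.60 and 3.67 CPM with ML210 against 1.52, 2.76 and 2.56 CPM in controls (log2 0.54, SE 0.212, adjusted p = 0.66). The ML210 and control values of EFNA1 overlapped.

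**Figure D5:**
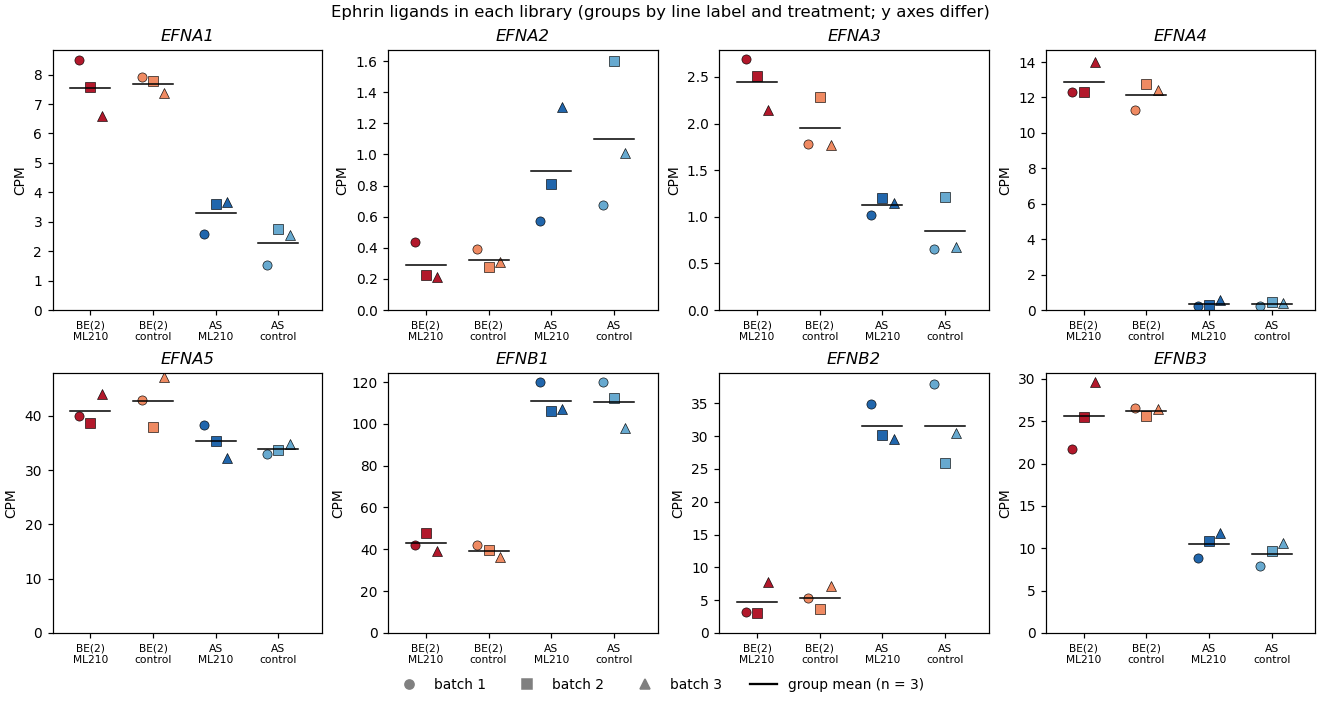
CPM of the 8 ephrin ligands in each library, with groups along the x axis, a marker for each batch and a line at the group mean (n = 3); y axes are linear and differ between panels. EFNA4 separates most by line label, EFNB1 and EFNB2 are lower under the SK-N-BE(2) label, and ML210 and control values overlap in all panels.

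Of 39 genes known to act with EPH receptors or below them, 38 were tested. With ML210, 15 were higher and 14 lower under the SK-N-BE(2) label, and in controls 16 were higher and 15 lower, against 69% of all genes called with ML210 and 69.2% in controls. These counts include ANKS1B and GRB7, higher, and ARHGEF16, lower, each of which passed the filter on low counts only through the label where it was higher. Over the 33 partners that pass under each label alone, 13 were higher and 13 lower with ML210, and 14 were higher and 14 lower in controls. The median absolute log2 difference of those 33 was 0.69 with ML210 and 0.69 in controls. Over all 38 tested partners it was 0.80 and 0.93, against 0.80 and 0.81 over all genes tested. The values over all genes were not limited to those that pass under each label alone, so they compare with the 38. Higher in controls with the smallest adjusted p were the adaptor ANKS1A, which binds EPH receptors (66.3 ± 2.57 CPM labelled SK-N-BE(2), against 26.7 ± 2.94 CPM labelled SK-N-AS, SD, n = 3 each), the RAS-inactivating protein RASA1 (log2 1.07), the SRC-family kinase YES1 (log2 5.93) and the adaptor NCK2 (log2 1.03). Lower with the smallest adjusted p were another SRC-family kinase, FYN (15.1 ± 1.99 CPM labelled SK-N-BE(2), against 138.9 ± 4.60 CPM labelled SK-N-AS), the G-protein regulator RGS3 (log2 -1.11), the adaptor SH2D3C (log2 -6.17) and the ubiquitin ligase CBL (log2 -1.24). YES1 averaged 107 ± 9.21 CPM in controls labelled SK-N-BE(2), against 1.77 ± 0.795 CPM labelled SK-N-AS, so the 2 SRC-family kinases named differed in opposite directions.

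In the ML210 comparisons 0 of these 38 were called by DESeq2, against 3.63% of all genes labelled SK-N-BE(2) and 0.212% labelled SK-N-AS. By edgeR 0 were called under either label, against 1.37% and 0.0296%. Labelled SK-N-BE(2), 3 had an unadjusted p under 0.05: GRB7 (log2 -1.72), FYN (0.22) and RASA1 (-0.17), named after their values were seen, against 13.5% of all genes. Labelled SK-N-AS it was 1, PIK3R1 (0.18), against 6.89% of all genes. With the batch as a block, edgeR called 2 of 38 labelled SK-N-BE(2), against 6.83% of all genes. FYN was higher (log2 0.22, adjusted p = 0.0420). CHN1, which in mice relays EPHA4 signals to the cytoskeleton, was lower (log2 -0.28, adjusted p = 0.0278). In fits that left out 1 library, 0 to 2 partners were called lower labelled SK-N-BE(2), as were 24 to 686 of all genes.

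The 5 protein-coding genes outside the family with the most similar pattern to EPHA7 were VAT1L, PTPRF, PTGFRN, ADAMTS4 and SPRED3, each with a Pearson r of 0.997 in log2 CPM over the 12 libraries. This is a description of 12 libraries that fall into 2 sets by line label, and 189 of 10394 candidates had an r over 0.99. VAT1L averaged 94.7 CPM with ML210 and 140.1 CPM in controls labelled SK-N-BE(2), against 0.704 CPM with ML210 and 0.634 CPM in controls labelled SK-N-AS. SPRED3 averaged 36.2 CPM with ML210 and 38.2 CPM in controls labelled SK-N-BE(2), against 4.39 CPM with ML210 and 3.78 CPM in controls labelled SK-N-AS. These genes were chosen for their likeness over the same libraries, so their values are a description only.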

How the data were processed

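The deposited values were raw read counts per gene for 12 libraries, whole numbers that had not been normalized. The submitters' processing notes name FastQC, Trimmomatic 1.4, HISAT2 2.2.1 and featureCounts 2.0.5 and the builds GRCh38 and hg38. The annotation release, strand setting and treatment of multi-mapping reads are not given in these sources, so reads of overlapping antisense genes may be mixed. Per the labels' protocols, stranded mRNA libraries were sequenced on a NovaSeq instrument. Groups, batches and replicate numbers came from the labels.

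Gene names were matched for 61544 of 61552 identifiers, from a table of gene names (61399) and GENCODE 29 on GRCh38 (145). Analysis used edgeR 4.0.16 in R 4.3.3. The filter filterByExpr by group kept 20304 genes, libraries were scaled by TMM, and 1 fit of all 12 libraries, with 1 mean for each group and 8 residual degrees of freedom, gave the robust quasi-likelihood tests, two-sided, with Benjamini-Hochberg adjustment over all genes tested. The threshold for a call was an adjusted p of 0.05. Adjusted p-values of single genes come from this edgeR test where no other tool is named. CPM used TMM-scaled totals and RPKM the union of exons in GENCODE 29. The floor of 3 reads and all intervals cover counting error or the spread of these libraries only. The fit was checked only on simulated counts with the same dispersion for all genes and no batch effect. That check does not cover genes whose spread differs between the labels.

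The 10 receptors, the ephrins, the partner list and the rules for naming genes were chosen with earlier results of these data known. Named partners were up to 4 called in each direction with the smallest adjusted p in controls. Promoter windows were those nearest the GENCODE start where RefSeq lists several, and the 18 bases of the EPHA2 window nearest its start lie inside the longer GENCODE transcript. Batch labels pair the libraries. Deviations from the group means correlated at 0.0957, 0.120 and 0.169 for same-batch ML210 and control libraries labelled SK-N-BE(2) and at 0.357, 0.0677 and 0.121 labelled SK-N-AS. Labelled SK-N-AS, batch 2 ML210 with batch 3 control gave 0.125, and batch 3 ML210 with batch 2 control gave 0.189. Batches 2 and 3 of that label thus did not pair better within a batch than across. All other different-batch pairs were negative, from -0.269 to -0.00693 over both labels. Alternatives were DESeq2 1.42.0, other scalings, no filter, no robust estimation, fewer libraries and a batch block.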

Additional observations from a re-analysis of the deposited data

How the results depend on the processing

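The line differences of EPHA2, EPHA5, EPHA7, EPHB4 and EPHB6 kept their direction and call in both treatments under every alternative run. The number of receptors lower with ML210 labelled SK-N-BE(2) was 0, but 1, EPHA7, with the replicate block within each label and 1 with only the libraries compared. Calls over all genes in that comparison numbered 166 higher and 113 lower, against 695 and 691 with the replicate block, 405 and 332 with DESeq2, 272 and 284 with no filter, and 15 and 36 with only the libraries compared. The block changed 2 other receptor results: EPHA4 in controls (1.74, adjusted p = 0.0660) and EPHB1 with ML210, which reversed to -0.085 without a call. It changed no other call of a receptor or an ephrin. Receptors lower in controls numbered 1 to 2 when 1 library was left out, the second being EPHB3. The order per gene length in SK-N-AS controls kept 6 of 10 places with the longest coding transcript in place of the union of exons.

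Library totals in place of TMM moved the median log2 of all genes to 0.22 with ML210 and 0.24 in controls, and the split of calls to 8347 higher and 5737 lower with ML210 and 8575 higher and 5550 lower in controls, against 7017 and 6997 and 6893 and 7154 with TMM. EPHB2 with ML210 was then called (0.33, adjusted p = 0.000682), and the difference of responses of EPHA5 turned to -0.019. Without the 4 libraries labelled SK-N-AS of batches 2 and 3, an alternative chosen after seeing the data, EPHB3 turned to 0.48 with ML210 and 0.44 in controls, EPHB1 turned to -0.061 with ML210, and EPHA4 in controls (1.56, adjusted p = 0.132) and EPHA1 with ML210 (2.31, adjusted p = 0.0787) lost their calls. Without robust estimation EPHA4 in controls had an adjusted p of 0.0514. The cause was not tested in any of these.

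Leaving out 1 library turned the sign of uncalled log2 values. Labelled SK-N-BE(2) with ML210 against control, EPHA2 ran from -0.13 to 0.27 and EPHB6 from -0.038 to 0.18. Labelled SK-N-AS, the ranges were -2.30 to 0.073 for EPHA4, -0.18 to 0.67 for EPHA7, -0.25 to 0.27 for EPHB3, -0.17 to 0.42 for EPHB4 and -1.32 to 0.35 for EPHB6. For the difference of responses they were -0.36 to 0.035 for EPHA2, -0.089 to 0.18 for EPHA5, -0.14 to 0.38 for EPHB3 and -0.26 to 1.41 for EPHB6, and EPHB1 between labels with ML210 ran from -0.34 to 0.51. EFNA5 with ML210 lost its call in 8 of 12 such fits. EPHA7 with ML210 labelled SK-N-BE(2) stayed between -0.91 and -0.66 (adjusted p 0.118 to 0.636).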
